A study of Mus musculus with 2208 samples.

Results

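Mitosis and chromosome segregation genes were followed in single microglia sorted from the hippocampus of mice undergoing neurodegeneration. The set held 44 genes, taken from the deposited expression table by symbol, of 23951 genes in all: mitotic cyclins and kinases, checkpoint, centromere and kinetochore genes, spindle motors, condensin subunits and genes of cytokinesis. All 44 symbols were found in the table. The choice of these genes used names and known roles, not measured values, but it was made with earlier results of these data known.

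The cells came from CK-p25 mice (written CKp25), in which expression of p25, a shortened form of the Cdk5 activator p35, can be switched on, and from CK control littermates. As background, p25 in this model is made in forebrain neurons, so the sorted cells are not the cells that make it; the driver and the inducing agent are not in the labels used here. Both genotypes were sampled before induction (0 weeks, age 3 months) and 1, 2 and 6 weeks later (3 months and 1 week, 3 months and 2 weeks, 4 months and 2 weeks). Every group held 3 mice except CKp25 at 6 weeks, with 4. Cells carrying CD11b and CD45 were sorted one per well and made into Smart-seq2 libraries, a full-length method without molecular identifiers.

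Mitosis divides the replicated chromosomes between daughter cells. Cyclin B with Cdk1 drives entry, the Aurora and Polo-like kinases and the kinetochore attach chromosomes to the spindle, and the anaphase-promoting complex with its activator Cdc20 ends it. Transcripts of most of these genes accumulate in G2 and M phase and are scarce in resting cells, and adult microglia are mostly resting but can divide when the brain is injured. Their promoters often carry CCAAT boxes, bound by NF-Y, and a CHR element (cell cycle genes homology region), through which the DREAM and MuvB complexes act.

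Promoter letters are shown because the genes below moved together. RefSeq promoters (GRCm38.p6) were matched by symbol for 35 of the 44 genes. In the 250 bases before the start, TTTGAA or TTCGAA (CHR-type letters) or CCAAT was searched on both strands, so that TTCAAA and ATTGG count too; a match of one motif may share an end base with a match of the other. CCAAT was found for 27 of 35 genes (77.1%), against 37.5% of the 27025 genes in the promoter table. CHR-type letters were found for 15 of 35 (42.9%), against 19.6%, and both for 14 of 35 (40%), against 7.93%. Of all 32851 promoters, 33.9% held CCAAT and 17.2% held CHR-type letters. The 5 genes printed first are those with a single promoter that holds both motifs and the largest differences at 1 week; Racgap1, which did not pass the test then, follows. Capitals mark the motif letters, and all 6 lie on the minus strand, written 5′ to 3′ in the direction of the gene: Top2a chr11:99024190-99024439, Cks1b chr3:89418292-89418541, Cdk1 chr10:69352913-69353162, Ncapd2 chr6:125191587-125191836, Mki67 chr7:135716380-135716629 and Racgap1 chr15:99651657-99651906.
Top2a: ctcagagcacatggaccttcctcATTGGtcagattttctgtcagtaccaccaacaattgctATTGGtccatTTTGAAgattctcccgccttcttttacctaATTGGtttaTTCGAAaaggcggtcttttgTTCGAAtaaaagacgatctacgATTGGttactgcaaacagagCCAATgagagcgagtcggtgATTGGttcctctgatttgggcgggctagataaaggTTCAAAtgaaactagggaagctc
Cks1b: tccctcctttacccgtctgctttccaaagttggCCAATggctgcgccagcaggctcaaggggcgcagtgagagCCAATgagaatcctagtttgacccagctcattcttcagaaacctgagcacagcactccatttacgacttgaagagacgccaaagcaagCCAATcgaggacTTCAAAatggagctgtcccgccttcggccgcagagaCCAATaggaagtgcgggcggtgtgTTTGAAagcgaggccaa
Cdk1: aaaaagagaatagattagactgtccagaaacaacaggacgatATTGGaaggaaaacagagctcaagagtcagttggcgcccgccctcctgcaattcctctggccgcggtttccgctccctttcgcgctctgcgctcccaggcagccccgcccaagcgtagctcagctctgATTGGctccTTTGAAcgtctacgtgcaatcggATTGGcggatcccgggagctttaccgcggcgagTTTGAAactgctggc
Ncapd2: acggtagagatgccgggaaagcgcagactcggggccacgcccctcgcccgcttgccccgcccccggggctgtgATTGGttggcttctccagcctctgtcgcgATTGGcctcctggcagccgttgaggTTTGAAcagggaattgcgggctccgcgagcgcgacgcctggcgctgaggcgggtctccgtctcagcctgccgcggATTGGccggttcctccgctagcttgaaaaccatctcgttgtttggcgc
Mki67: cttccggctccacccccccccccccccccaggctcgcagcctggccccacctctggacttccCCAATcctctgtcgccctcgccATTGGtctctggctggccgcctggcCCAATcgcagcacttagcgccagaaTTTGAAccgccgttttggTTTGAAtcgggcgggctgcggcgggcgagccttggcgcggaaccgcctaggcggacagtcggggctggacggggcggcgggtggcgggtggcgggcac
Racgap1: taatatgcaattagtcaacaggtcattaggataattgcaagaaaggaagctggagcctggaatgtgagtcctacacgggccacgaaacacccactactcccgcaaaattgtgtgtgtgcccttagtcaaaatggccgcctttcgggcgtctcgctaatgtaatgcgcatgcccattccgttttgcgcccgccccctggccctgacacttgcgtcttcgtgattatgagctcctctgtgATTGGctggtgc
A match is only a run of letters. The Racgap1 window held 1 ATTGG, 12 bases before the start, and no CHR-type letters. No match says only that the letters are not in that window. Of the 30 matched genes called at 1 week, 24 held CCAAT. Anln, Birc5, Mad2l1, Ndc80 and Nusap1 were called with neither motif. Aurka, Bub1, Ccnb1, Cenpa, Plk1 and Spc25 were among those called without CHR-type letters. A link between the letters and the difference was not tested.

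Of 2208 wells, 2003 were kept with at least 1000 genes at FPKM (fragments scaled to transcript length and to mapped fragments) of 1 or more, 40 to 95 per mouse; no wells held identical values. The first well of each mouse was left out, because 19 of these 25 wells held over 8000 genes. Mouse medians of genes per cell ran from 1537 to 2992. FPKM keep no read counts, and 19.6% of kept wells list even Gapdh at 0, so a 0 is read only as listed at 0. Among 12 microglia markers the median cell with under 10 of the mitosis genes held 12 in every group. Of those cells, 3 or more markers of another cell type were found in 2 of 217 in CKp25 mice at 1 week and 6 of 235 at 2 weeks. In CK mice it was 3 of 269 and 4 of 281. At 6 weeks it was 8 of 227 in CKp25 mice, 7 of them by border-associated macrophage markers, and 1 of 178 in CK mice. Before induction it was 8 of 270 in CK mice and 5 of 255 in CKp25 mice. Of these, 6 and 4 passed by border-associated macrophage markers. The CKp25 cell with the fewest microglia markers at 6 weeks held 3. Of 62 markers of other cell types, 22 at 1 week and 25 at 2 weeks were at 0 in those CKp25 cells, among them S100a8, S100a9, Ms4a1 and Cd3e. The most frequent were Cxcr2 of the neutrophil list (47% and 41.7%), Mbp of the oligodendrocyte list (12.4% and 20%) and, at 1 week, Cd79b of the B cell list (10.6%). A mouse listed at 0 allows a share of up to 7.5% of cells where 40 cells were kept and 3.16% where 95 were.

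Levels are given in 2 ways: the share of a mouse's cells with the gene at FPKM of 1 or more, and the mouse mean of log2(FPKM + 1), on which limma was fitted to all 25 mice (2-sided, Benjamini-Hochberg adjustment, threshold 0.05). Its p-values measure the spread between mice, not between cells. That spread, and each standard error, is 1 estimate per gene over all 8 groups, not that of the groups compared. Groups with a gene at 0 in every mouse, such as Spc25 in CK mice at 2 weeks, add no spread to it. For such genes the spread in CKp25 mice at 1 or 2 weeks can be understated and p too small. A difference on that scale understates change in genes at low values, and it does not separate more cells with a gene from more RNA per cell. Genes entered the fit when the mean share over all 25 mice reached 2%, which kept 11312 genes and 40 of the 44; Cdc25c, Ttk, Kif20a and Melk stayed under it. Over the 22 mice outside CKp25 at 1 week only 22 of the 44 would have passed. The other 18 that entered did so through the group where they were high, and had to differ there. These were Ccnb1, Ccnb2, Cdc20, Cdc25b, Aurka, Aurkb, Bub1, Bub1b, Cenpe, Ndc80, Spc25, Kif23, Kif2c, Anln, Ect2, Nusap1, Pbk and Foxm1. A call of these genes in a comparison with that group is partly fixed in advance, so counts with no filter are given too.

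At 1 week after induction the mitosis genes were higher in CKp25 than in CK microglia across every role. All 44 had their highest mean level of the 8 groups in CKp25 mice at 1 week. Of the 40 tested, 37 passed the limma test as higher and 0 as lower. Of all 11312 genes tested, 3.51% were called higher and 0.292% lower. Of the 22 that pass the filter without that group, 19 were called. With no filter on low values, 40 of 44 were called, against 1.78% of 21275 genes; the median difference over all 44 was 0.64, against 0 over all genes. In 41 of 44 the 3 CKp25 mice all lay above the 3 CK mice of that week, which held for 11.8% of the genes tested.

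**Figure D1:**
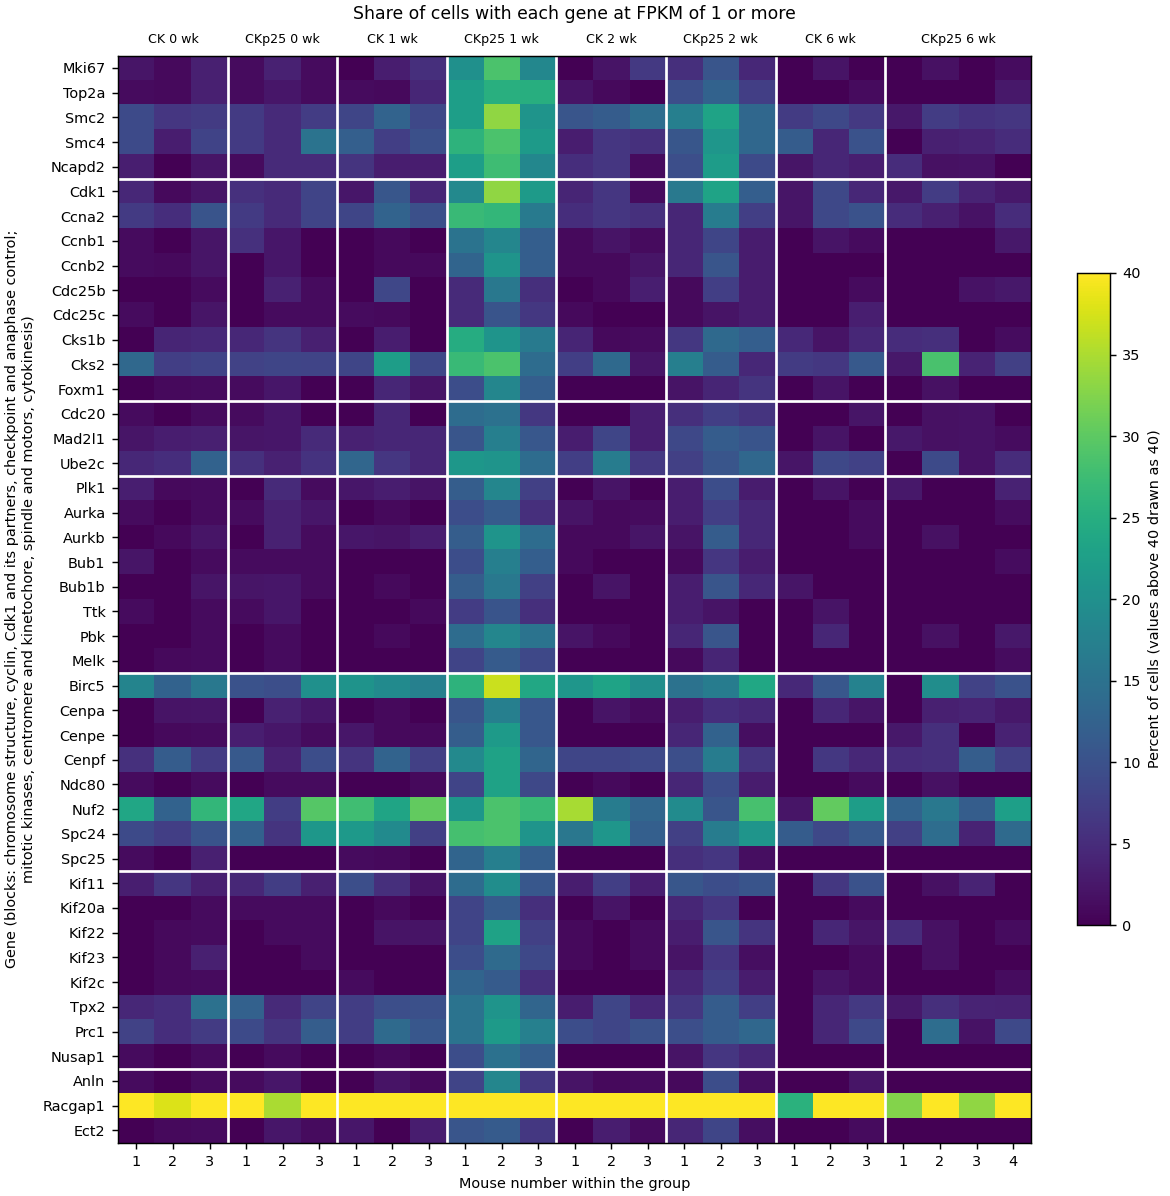
Percent of cells with each of the 44 genes (rows, in blocks by role) in each of the 25 mice (columns, by group); colour runs from 0 to 40%, and higher values are drawn as 40. The 3 CKp25 mice at 1 week form the brightest columns, with a median over the genes of 14.8% of cells, and Racgap1 is bright in every group.

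Among chromosome structure genes, Top2a, the topoisomerase that untangles replicated DNA, was found in 22.4%, 25.3% and 25% of cells in CKp25 mice 1 to 3 at 1 week, and in 1.205%, 1.06% and 4.35% in the CK mice. The groups did not overlap. The difference was 1.39 ± 0.10 (SE) in mean log2(FPKM + 1) (limma adjusted p = 1.01e-12), the highest of the set. Mki67, whose protein coats mitotic chromosomes and is the usual label of dividing cells, was found in 20%, 28.7% and 18.5% of CKp25 cells against 0%, 3.19% and 5.43% of CK cells. Again no mouse overlapped, and the difference was 1.00 ± 0.09 (adjusted p = 1.87e-10). The condensin genes Smc2, Smc4 and Ncapd2, which compact chromosomes, rose too, by 0.80, 0.84 and 1.04, but started from more cells: 9.96%, 9.76% and 4.16% in CK mice.

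All 9 genes of the cyclin and Cdk1 group were highest in CKp25 mice at 1 week, and 7 of the 8 that were tested rose. Cdk1, the kinase that drives entry into mitosis, was found in 18.8%, 33.3% and 21.7% of CKp25 cells and 2.41%, 10.6% and 4.35% of CK cells, a difference of 1.24 ± 0.15 (adjusted p = 9.86e-08). Its cyclin partner Ccnb1 was found in 0%, 1.06% and 0% of CK cells and in 15.3%, 18.4% and 11.96% of CKp25 cells (difference 1.06 ± 0.09, adjusted p = 1.67e-10). Neither gene's mice overlapped between genotypes. Cks1b, a small subunit that binds Cdk1, rose by 1.37 ± 0.14, whereas its close relative Cks2 did not pass the test (0.79 ± 0.28, adjusted p = 0.126): CK mouse 2 had it in 22.3% of cells, above CKp25 mouse 3 at 14.1%. Foxm1, the transcription factor of the G2 and M programme, rose by 0.52 ± 0.06, and Cdc25b, the phosphatase that activates Cdk1, by 0.35 ± 0.09, the smallest called difference (adjusted p = 0.00925). Cdc25b did not pass with no filter, or when CK mouse 1, CK mouse 3 or CKp25 mouse 2 of that week was left out.

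In checkpoint and anaphase control, Cdc20, the activator of the anaphase-promoting complex, was found in 14.1%, 14.9% and 6.52% of CKp25 cells against 0%, 4.26% and 0%, a difference of 0.72 ± 0.09 (adjusted p = 4.48e-07). Ube2c, the ubiquitin-conjugating enzyme of that complex, rose by 0.94 ± 0.15 and the spindle checkpoint gene Mad2l1 by 0.50 ± 0.10. All 6 mitotic kinases tested rose, but only Plk1 would have entered the fit without CKp25 mice at 1 week. With no filter on low values all 6 passed too (limma adjusted p up to 0.00142, for Plk1). Pbk, a kinase active in mitosis, had the largest difference of the 6: it was found in 14.1%, 18.4% and 15.2% of CKp25 cells and 0%, 1.06% and 0% of CK cells, and rose by 1.19 ± 0.10 (adjusted p = 6.71e-11). Aurkb, the kinase of the chromosomal passenger complex, rose by 0.79, Plk1 by 0.70, Bub1b by 0.60, Bub1 by 0.58 and Aurka by 0.53. Bub1 and the untested Melk were listed at 0 in every CK cell at 1 week; in CKp25 mice Bub1 was found in 9.41%, 17.2% and 11.96% of cells and Melk in 8.24%, 11.5% and 8.70%.

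Of the 8 centromere and kinetochore genes, 7 rose. Spc25, a subunit of the NDC80 complex that grips microtubules, was found in 12.9%, 17.2% and 11.96% of CKp25 cells against 1.205%, 1.06% and 0%, a difference of 0.83 ± 0.08 (adjusted p = 4.22e-10). Of the other subunits of that complex in the set, Ndc80 rose by 0.77. In CK mice Nuf2 and Spc24 were found in a larger share of cells than Spc25 and Ndc80. Nuf2 was found in 21.2%, 28.7% and 27.2% of CKp25 cells and 27.7%, 23.4% and 30.4% of CK cells, so the mice overlapped (difference 0.27 ± 0.23, adjusted p = 0.618). Spc24 was found in 16.1% ± 7.5 (SD, n = 3) of CK cells and rose by 0.63 ± 0.17 (adjusted p = 0.0226), which did not pass when CK mouse 3, CKp25 mouse 1 or CKp25 mouse 2 of that week was left out, nor with 2000 genes per well, a pseudocount of 0.1 or quantile normalization. Birc5, the survivin gene of the passenger complex, rose by 1.04 ± 0.17 although 19.01% ± 1.55 of CK cells had it. The centromeric histone gene Cenpa, and Cenpe and Cenpf, which act at kinetochores, rose by 0.79, 0.59 and 0.44; Cenpf did not pass without CKp25 mouse 2 of that week. Fitting only the groups compared ended 7 of the 37 calls of that week, those of Cdc25b, Mad2l1, Cenpf, Spc24, Tpx2, Prc1 and Smc2, and the log2 of mean FPKM ended those of Mad2l1 and Smc2.

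All 7 spindle and motor genes tested rose, between 0.48 (Kif2c, which depolymerises microtubules) and 0.68 (Kif22, a chromosome-binding kinesin). Kif23, Kif2c and Nusap1 entered the fit only through CKp25 mice at 1 week. With no filter on low values all 7 passed too (limma adjusted p up to 0.00674, for Kif22). Nusap1, which bundles spindle microtubules, was found in 9.41%, 14.9% and 11.96% of CKp25 cells against 0%, 1.06% and 0%, a rise of 0.64 ± 0.07 (adjusted p = 6.11e-09). Of the cytokinesis genes, Anln and Ect2 rose by 0.50 ± 0.09 and 0.39 ± 0.07. Racgap1, part of the centralspindlin complex, did not (0.05 ± 0.32, adjusted p = 0.966). It was found in 49.4%, 60.9% and 51.1% of CKp25 cells and in 72.3%, 64.9% and 61.96% of CK cells, so every CKp25 mouse had it in a smaller share of cells. Its mean FPKM was nevertheless 20.6, 24.4 and 23.8 in CKp25 mice against 9.25, 6.89 and 6.65 in CK mice, without overlap; with the log2 of the mean FPKM in place of the mean of log2, its difference was 1.49 with an adjusted p of 0.0814. The sign of the difference itself turned with a pseudocount of 0.1 (-0.33) and with quantile normalization (-0.06).

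**Figure D2:**
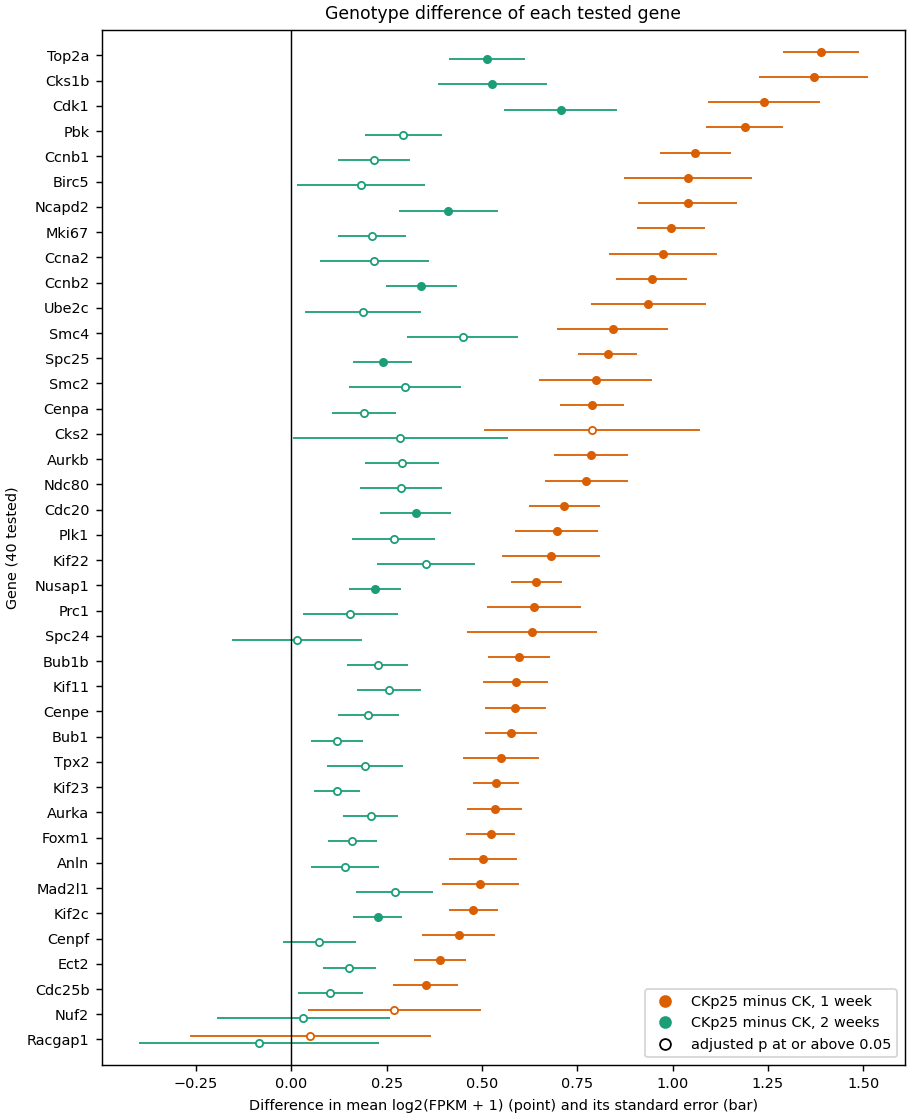
Difference between CKp25 and CK mice in mean log2(FPKM + 1) at 1 week (orange) and 2 weeks (green), with standard errors, for the 40 tested genes in order of the 1-week value; open points missed the threshold. At 1 week the values run from 0.05 (Racgap1) to 1.39 (Top2a), and at 2 weeks from -0.09 (Racgap1) to 0.71 (Cdk1).

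Before induction the genotypes showed no called difference in these genes: 0 of 40 passed in limma, as did 0 of 11312 genes (0%), and 0 of 40 had an unadjusted p under 0.05 against 153 of all genes. Differences ran from -0.14 to 0.18. In CKp25 mice, 38 of 40 rose from 0 weeks to 1 week, against 7.79% of all genes, and the median of all genes also rose by 0.12. The 2 mitosis genes that did not pass were Nuf2 and Racgap1. With no filter on low values 41 of 44 rose. Here and below, comparisons between weeks within a genotype are between different mice. In them, time since induction cannot be told apart from age or from any processing particular to a week. In CK mice 0 of 40 passed from 0 weeks to 1, 2 or 6 weeks (0% of all genes). At an unadjusted p under 0.05 in limma it was also 0 of 40, against 1118, 700 and 395 of the 11312 genes. The increase of the genotype difference from 0 weeks to 1 week was itself past the threshold for 30 of 40, against 1.11% of all genes. It was largest for Top2a, at 1.39 ± 0.14 (adjusted p = 2.26e-08), and these 30 included all 6 tested kinases. With no filter on low values the count was 29 of 44, and the kinase Plk1 did not pass (limma adjusted p = 0.0821).

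At 2 weeks the genes were lower than at 1 week, and fewer stood above the controls. In CKp25 mice 9 of the 40 tested were called higher, against 5% of all genes: Top2a, Cdk1, Ccnb2, Cdc20, Spc25, Kif2c, Nusap1, Cks1b and Ncapd2. An unadjusted p under 0.05 in limma was found for 25 of 40, against 2075 of 11312 genes. Cdk1 was found in 16.1%, 23.2% and 11.9% of CKp25 cells against 4.21%, 6.32% and 1.10% of CK cells, a difference of 0.71 ± 0.15 (adjusted p = 0.00126). Top2a was found in 9.68%, 12.6% and 7.46% against 2.11%, 1.05% and 0% (difference 0.51 ± 0.10, adjusted p = 0.000508). For both, all CKp25 mice lay above all CK mice, as they did for 27 of 44 genes, against 12.1% of all genes tested, and 1.79% were called lower. The count of calls rests on single mice: it was 4 of 44 with no filter (2.1% of 21275 genes), 2 without CKp25 mouse 2 of that week, 3, 3 and 4 without CK mice 1, 2 and 3, and 16 without CKp25 mouse 2 at 1 week.

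Mki67, the label gene, was not among the 9. It was found in 5.38%, 10.5% and 4.48% of CKp25 cells and 0%, 2.11% and 6.59% of CK cells at 2 weeks, and CK mouse 3 lay above 2 of the CKp25 mice (difference 0.21 ± 0.09, adjusted p = 0.171). Pbk, among the largest at 1 week, was listed at 0 in CKp25 mouse 3 and found in 4.30% and 10.5% of cells in the other mice (0.29 ± 0.10, adjusted p = 0.0731).

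Within CKp25 mice, 33 of 40 fell from 1 to 2 weeks and 0 rose, against 1.56% of all genes called lower and 2.11% higher. Top2a fell by 0.94 ± 0.10 and Ccna2, the cyclin of S and G2 phase, by 0.93 ± 0.14. The genes not called were Cdc25b, Mad2l1, Cenpf, Nuf2, Kif22, Racgap1 and Cks2. The count was 17 without CKp25 mouse 2 at 1 week and 20 without CKp25 mouse 3 at 2 weeks. It was 9 when only these groups were fitted, 11 on the log2 of mean FPKM and 34 of 44 with no filter on low values. The fall of the genotype difference was past the threshold for 13 of 40, against 0.398% of all genes: Mki67, Top2a, Ccna2, Ccnb1, Ccnb2, Bub1, Cenpa, Spc25, Kif23, Nusap1, Cks1b, Pbk and Foxm1. That count was 23 without CKp25 mouse 3 at 1 week or without CKp25 mouse 2 at 2 weeks, and 0 on the log2 of mean FPKM. Of the 13, only Mki67, Top2a, Ccna2, Cenpa and Cks1b would have entered the fit without CKp25 mice at 1 week. With no filter 13 of 44 passed, but not the same 13. Ccna2 (limma adjusted p = 0.0846) and Cks1b (0.0553) did not pass, while Ttk and Melk did.

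The share of cells at 2 weeks, as a percentage of that at 1 week, had a median of 45.6% over the 44 genes. It was lowest for Melk (18.6%), Ttk (23.3%) and Bub1 (26.9%), all kinases, and Cdc25c (28.6%). At the other end stood Racgap1 (94.7%), Mad2l1 (79.2%), Nuf2 (75.6%), Smc2 (70.5%) and Cdk1 (69.3%). Several of the latter were also common in CK cells. Mki67 kept 30.3%, Ccnb1 34.4%, Top2a 41.0% and Cks1b 52.0%. These ratios are a description over 3 mice a week and were not tested.

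**Figure D3:**
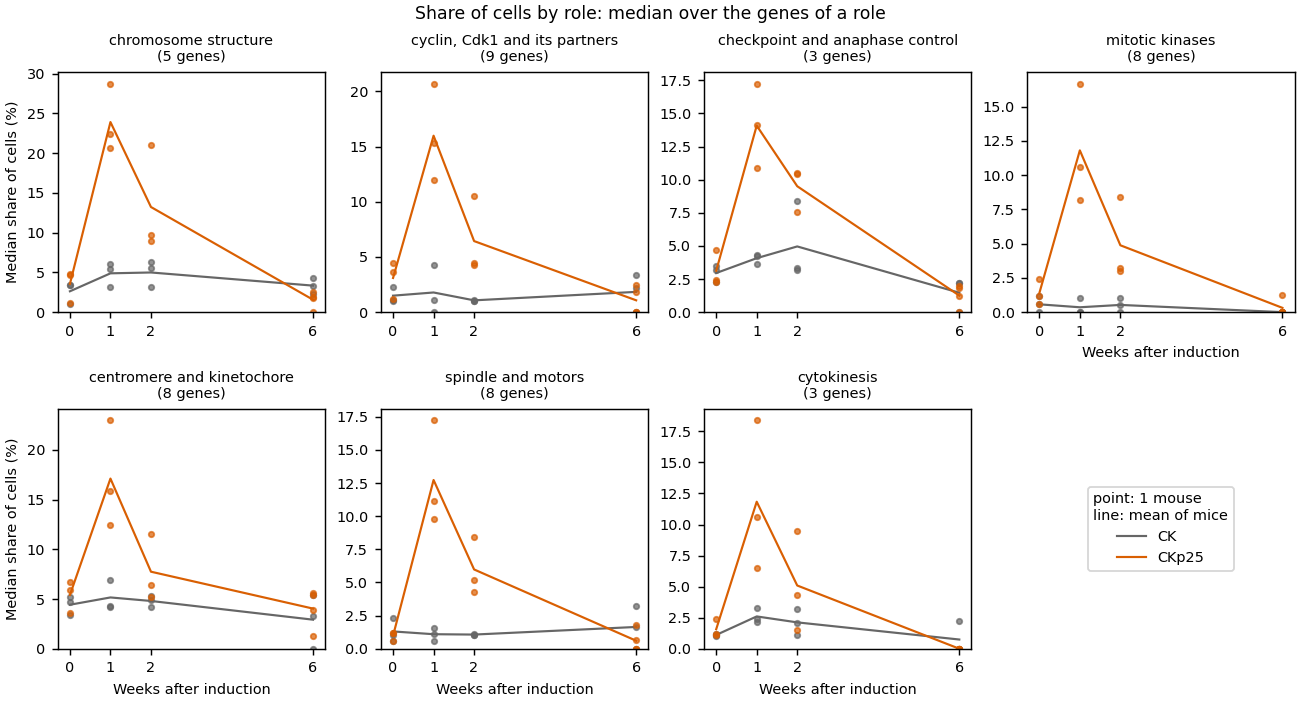
Median share of cells (percent) over the genes of each of the 7 roles, by week after induction, in CK (grey) and CKp25 mice (orange); points are mice and lines join group means. In all 7 roles every CKp25 mouse lies above every CK mouse at 1 week, in 4 of 7 at 2 weeks and in 0 of 7 at 6 weeks.

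By 6 weeks no difference between genotypes was called: 0 of 40 in either direction, against 3.66% of all genes called higher and 1.1% called lower. None of the 40 had an unadjusted p under 0.05 (limma), against 1640 of all genes. Differences ran from -0.39 to 0.11, and in 0 of 44 genes were the mice of the groups apart, against 5.83% of all genes apart and higher and 5.59% apart and lower. Ccnb2, Spc25 and Nusap1 were listed at 0 in every cell of all 7 mice of that week. Mki67 was found in 0%, 1.79%, 0% and 1.25% of cells of the 4 CKp25 mice and 0%, 2.17% and 0% in the CK mice. From 2 to 6 weeks, 13 of 40 fell, against 2.25% of all genes called lower, among them Top2a (by 0.51 ± 0.09) and Cdk1 (by 0.60 ± 0.14), while the median difference of all genes was -0.135. That count was 1 without CKp25 mouse 2 at 2 weeks, 7 without CKp25 mouse 1 or mouse 3 at 6 weeks and 20 without CKp25 mouse 2 at 1 week. Between 0 and 6 weeks in CKp25 mice 0 of 40 were called by limma, against 3.78% of all genes called higher and 1.72% lower, and 1 had an unadjusted p under 0.05, against 1883 of all genes. The genotype difference did not change past the threshold from 2 to 6 weeks in any (0 of 40 in limma, against 0.00884% of all genes called higher and 0.0177% lower); 15 had an unadjusted p under 0.05, against 632 of all genes.

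The genes were found together in a limited number of cells. With 5 of the 44 as the minimum, 30.6%, 39.1% and 26.1% of cells of the CKp25 mice at 1 week held several, but so did 6.02%, 20.2% and 9.78% in the CK mice, so the line at 5 takes in background. With 10 as the minimum, 15 of 85, 19 of 87 and 13 of 92 cells qualified in CKp25 mice at 1 week, a share of 17.9% ± 3.86 (SD, n = 3), and 6 of 93, 12 of 95 and 2 of 67 at 2 weeks, 7.36% ± 4.89. In CK mice 0 of 269 cells at 1 week and 0 of 281 at 2 weeks did, which allows up to 1.12% and 1.07%. Elsewhere only 4 cells did: 1 in CK mice at 0 weeks, 2 in CKp25 mouse 2 at 0 weeks and 1 in CK mice at 6 weeks; CKp25 mice at 6 weeks had 0 of 227, which allows up to 1.32%. These limits pool the cells of the mice of a group and cover the counting of cells only, not the spread between mice. At 1 week, 10 CKp25 cells held 8 or 9 of the genes and 3 held 10 to 12. Another 25 held 30 or more, up to all 44.

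**Figure D4:**
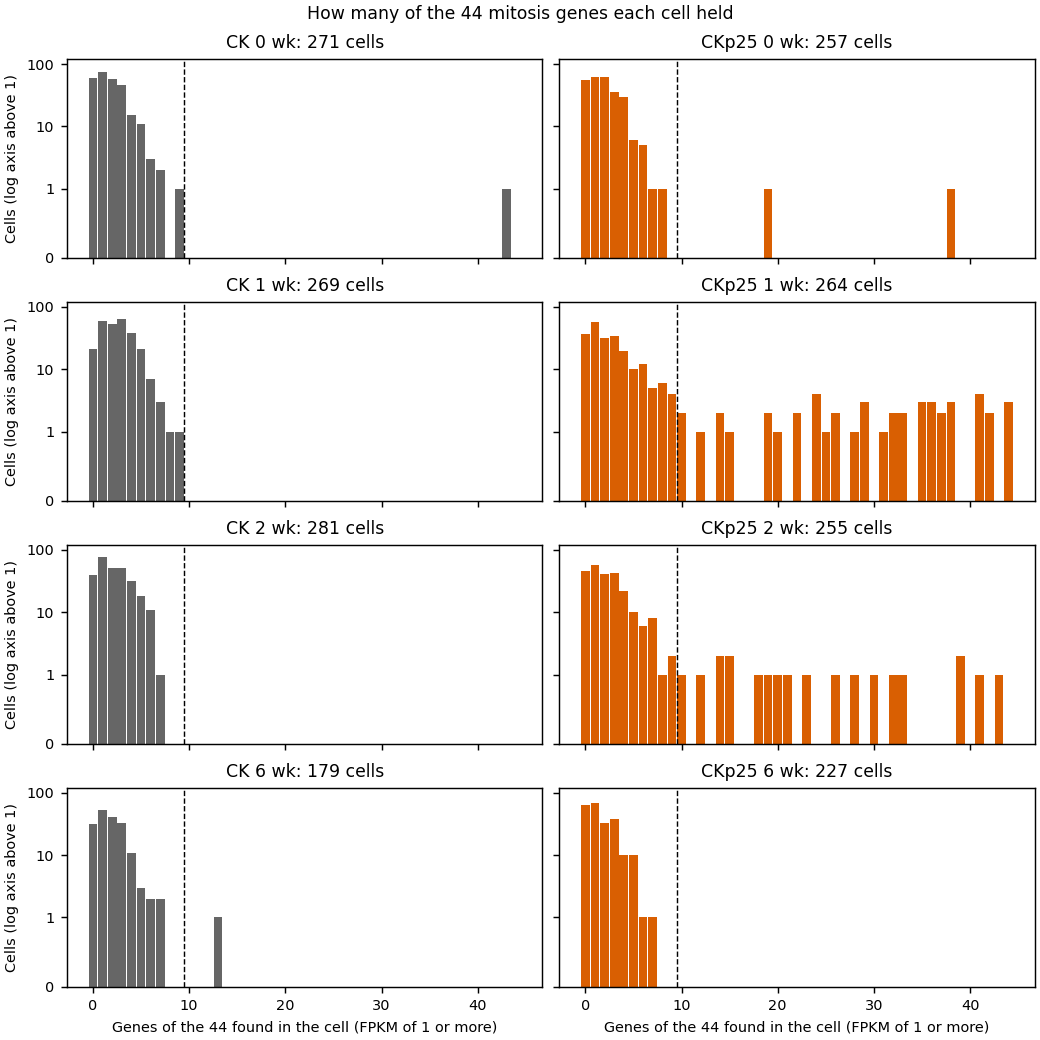
Number of cells (vertical axis, logarithmic above 1) holding each number of the 44 genes, one panel per group; the dashed line marks the minimum of 10. Cells to the right of the line number 47 in CKp25 mice at 1 week and 20 at 2 weeks, and at most 2 in any other group.

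These cells carried microglia markers and other cell cycle genes. Of 43 DNA replication genes, which the count of mitosis genes does not use, the 47 cells at 1 week held a median of 19 and the other CKp25 cells 4; at 2 weeks the 20 cells held 16 and the others 4. At least 5 replication genes were found in 95.7% of the 47 and 44.2% of the rest. The 47 cells held a median of 12 of the 12 microglia markers and no fewer than 10, and in 0 of them were 3 or more markers of any other type found. The 20 cells at 2 weeks held a median of 12 and no fewer than 8, and 1 of them held 3 or more neuron markers. P2ry12, a receptor of resting microglia, was found in 97.9% of the 47 cells at 1 week and 99.1% of the other CKp25 cells. Tmem119 was found in 100% of both. At 2 weeks Gpr34 was found in 80% of the 20 cells and 91.9% of the others. Of 62 markers of other cell types, 41 were at 0 in the 47 cells and 45 in the 20. Most frequent in the 47 were Cxcr2 (46.8%), Cd79b (19.1%) and the endothelial Pecam1 (14.9%), against 47%, 10.6% and 10.1% in the others. In the 20 they were Cxcr2 (40%), Plac8 (20%), Mbp (20%) and Kdr (15%), against 41.7%, 12.8%, 20% and 11.9%. At 1 week the 47 cells also held more genes in all, a median of 3672 per cell against 2328, and in each of the 3 mice. At 2 weeks the pooled medians were 3136 and 2714, but these cells held more only in mouse 2 (3340 against 2798), which had 12 of the 20, and fewer in mouse 1 (2362 against 2523) and mouse 3 (2570 against 2992). The part of this depth in the shares was not tested. The 2 CKp25 cells at 0 weeks and the CK cell at 6 weeks that passed 10 held 2622, 11886 and 7248 genes. Doublets were not called.

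For each gene in turn, the cells were drawn by the other 43 genes, so that the gene did not choose its own cells. At 1 week Top2a was found in 44 of 45 such cells (97.8%) and in 9.13% of the other CKp25 cells, Mki67 in 43 of 47 (91.5%) and 7.37%, and Smc2 in 93.5%. Over the pooled cells Cdc25b and Cdc25c were found least, in 17 of 47 (36.2%) each, although in mouse 3 Kif2c was lowest (23.1%). The median over the 44 genes was 67.7% in these cells, 3.00% in the other CKp25 cells and 1.30% in the 1000 cells of all CK mice. At 2 weeks it was 55.0% and 2.13%. Cells within a mouse share its source, and these shares pool 3 mice; for Top2a they were 92.9%, 100% and 100% in mice 1 to 3.

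**Figure D5:**
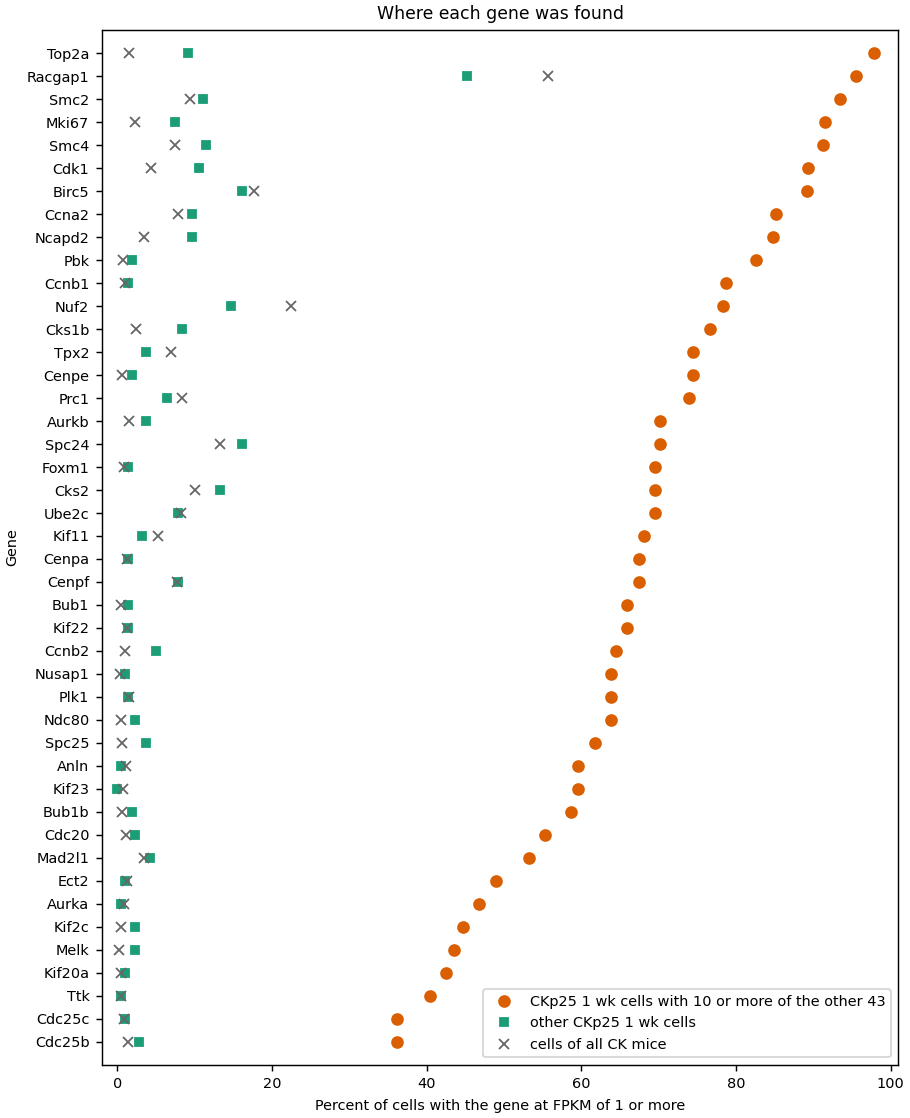
Percent of cells with each gene among CKp25 cells at 1 week that hold 10 or more of the other 43 genes (circles), among the other CKp25 cells of that week (squares) and among all 1000 CK cells (crosses). Circles run from 36.2% to 97.8%, and all lie to the right of the squares and crosses of the same gene.

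Without those cells the genotypes lay closer together. In each mouse the median share over the 44 genes was 12.9%, 20.1% and 11.96% at 1 week in CKp25 mice with all cells, and 3.57%, 3.68% and 3.75% with the cells holding 10 or more of the other genes left out, against 1.205%, 2.66% and 2.17% in CK mice. At 2 weeks it was 2.30%, 2.99% and 3.08% without them, against 1.05%, 2.11% and 1.10% in CK mice. By this median the CKp25 mice still lay above the CK mice at both weeks, but by the mean number of the genes per cell they did not: without those cells it was 2.596, 2.794 and 2.405 in CKp25 mice at 1 week against 2.494, 2.936 and 2.293 in CK mice, and 1.966, 2.131 and 2.8 against 2.189, 2.611 and 1.879 at 2 weeks. Because leaving cells out used the same genes, this is a description.

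The background in CK cells was uneven. Of the 44 genes, 30 stayed under 5% of cells in every CK group and 8 were over 5% in every one. Racgap1 was found in 557 of 1000 CK cells (55.7%), Nuf2 in 22.5%, Birc5 in 17.6%, Spc24 in 13.2% and Cks2 in 10%. Levels in those cells were lower than in the CKp25 cells with many mitosis genes at 1 week. The median FPKM among cells with Racgap1 was 9.65 in CK mice and 94.7 in those CKp25 cells, and for Nuf2 it was 8.90 and 46.5. In the other CKp25 cells of that week it was 10.9 for Racgap1 and 9.11 for Nuf2. Cks2 stood at 93.4 in CK cells with it, at 246 in the CKp25 cells with many mitosis genes and at 89.9 in the others. In GENCODE M21 (GRCm38), matched by symbol, exons of 9 of the 44 genes overlap another gene, on the opposite strand for Ccna2, Cdc20, Cdc25b, Plk1, Kif20a, Prc1, Nusap1 and Ube2c and on the same strand for Foxm1. The deposited values are on mm9, and their annotation may differ. The strand setting of the counting was not given in the sources used here, so reads of these pairs cannot be told apart. Racgap1, Nuf2, Birc5, Spc24 and Cks2 have no such overlap.

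Other genes of the pathway were taken from lists chosen with earlier results of these data known. The same 2% filter, with CKp25 mice at 1 week included, set which of them were tested. Genes at low shares may have entered only through that group, so their calls against it can be partly fixed in advance. Counts with no filter are not given for these lists. Of 74 further mitosis genes, 50 were tested, and 28 were higher and 0 lower at 1 week (3.51% of all genes were called higher); Cdca8, of the passenger complex, rose by 0.93 ± 0.09 and Ccnf, an F-box cyclin, by 0.95 ± 0.09. At 2 weeks 5 of these 50 were higher (5% of all genes), with Pkmyt1, an inhibitory kinase of Cdk1, first (0.43 ± 0.07, adjusted p = 2.2e-05), and 22 fell from 1 to 2 weeks (1.56% of all genes). Of 14 genes of the anaphase-promoting complex and its partners, all tested, only the ubiquitin-conjugating enzyme Ube2s was higher at 1 week (0.44 ± 0.11, adjusted p = 0.0102). Median differences at 1 week were 0.45 over the 50 and 0.25 over the 14, against 0.03 over all genes.

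Of 43 DNA replication genes, 40 were tested: 31 were higher at 1 week, led by Tk1 (1.25 ± 0.12), which makes thymidine nucleotides, and 13 at 2 weeks, against 3.51% and 5% of all genes. From 1 to 2 weeks 14 fell and from 2 to 6 weeks 15, against 1.56% and 2.25% of all genes. Of 23 genes of G1 control and Cdk inhibition, 15 were tested. At 1 week 5 were higher, against 3.51% of all genes, among them the repressor E2f8 (0.53 ± 0.09) and the Cdk inhibitor Cdkn1a (1.60 ± 0.32, adjusted p = 0.000827). Cdkn1a, which halts the cycle, was also the only 1 of them higher at 2 weeks (1.73 ± 0.32, adjusted p = 0.000209).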

How the data were processed

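Single-cell RNA from 2208 wells of 25 mice was analysed. The authors deposited FPKM for 23951 genes; Cufflinks 2.2 and the genome build mm9 are named per the submitters' processing notes, with annotation and strand setting not given in the sources used here. A median of 251353 mapped reads per cell is stated for 2183 libraries. No column was left unused (0). The tools were limma 3.58.1 in R 4.3.3 and Python 3.11.15. Wells under 1000 genes at an FPKM of 1 (180 wells) and each mouse's first well (25 wells) were left out. Cells were averaged per mouse as log2(FPKM + 1); genes entered at a mean share of 2% of cells. limma (trend and robust options) was fitted to 25 mice in 8 groups without covariates, with 17 residual degrees of freedom. It was run on simulated data with the same spread in every group and no floor at 0. That run could not show the understated spread of genes at 0 in whole groups. FPKM carry no counts, so no interval for counting reads was given; limits for 0 cells use 3 cells and cover the counting of cells only.

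The genes, lists, markers and the 10-gene line were chosen with earlier results of these data known. All 44 genes could be named, and up to 4 genes by smallest p from each other list and comparison. Alternatives were other well filters (no minimum, 2000 genes, first wells kept), pseudocounts (0.1, 10), gene filters (none, 10% of cells in 3 mice), log2 of mean FPKM, rescaling to a sum of 1000000, quantile normalization, fewer groups, no trend, a replicate block and each mouse left out.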

Additional observations from a re-analysis of the deposited data

Results flagged for a closer look

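The genotype difference changed between weeks by the interaction test in limma for 30 genes from 0 weeks to 1 week and for 13 from 1 to 2 weeks. With no filter on low values the counts were 29 and 13 of 44. The 5 largest increases from 0 weeks to 1 week were 1.39 for Top2a (adjusted p = 2.26e-08), 1.29 for Cks1b, 1.18 for Pbk, 1.14 for Birc5 and 1.09 for Cdk1, with adjusted p up to 0.00366. The 5 largest falls from 1 to 2 weeks were -0.89 for Pbk, -0.87 for Top2a, -0.84 for Cks1b, -0.84 for Ccnb1 and -0.79 for Mki67, with adjusted p up to 0.0149.

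Among the 4 CKp25 mice at 6 weeks, 1 mouse stood apart from the other 3 in mean log2(FPKM + 1) for 12 of the 44 genes; chance gives this in about 1 of 20 groups, and a gene listed at 0 in 3 mice is picked out whenever the other mouse has any. Mouse 4 was the only 1 above 0 for Top2a (0.097), Ccnb1 (0.13), Aurka (0.044), Bub1 (0.023), Kif2c (0.032) and Melk (0.087). Mouse 2 was the only 1 above 0 for Aurkb (0.077), Ndc80 (0.064), Kif23 (0.056) and Foxm1 (0.019), and stood above the others for Cdk1 (0.44, next 0.19). Mouse 1 was listed at 0 for Smc4, below the next at 0.14.

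The wells numbered first for each mouse, which entered the comparisons only as an alternative setting, held many of the 44 genes in CKp25 mice at 1 week: 44, 44 and 42, in wells with 10283, 10149 and 10740 genes. The lowest, 42, lay above the highest CK first well of that week, 40 in mouse 2 (10296 genes); the other CK first wells held 3 (2898 genes) and 12 (10463 genes). At 2 weeks the CKp25 first wells held 3, 43 and 39 and the CK ones 0, 12 and 14. How many cells a first well holds was not analysed here.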

How the results depend on the processing

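The number of genes called higher at 1 week (37) was 24 with a filter of 10% of cells in 3 mice, under which 27 were tested, and 34 to 38 with each mouse left out; that filter gave 25 for the rise in CKp25 mice from 0 weeks to 1 week (34 to 38) and 18 for the change of the genotype difference (25 to 33). At 2 weeks the count of 9 was 2 with at least 2000 genes per well, 4 with no filter and 3 without trend and robust options, and 2 to 16 with each mouse left out. The fall from 1 to 2 weeks (33) was 11 on the log2 of mean FPKM and 9 with only the groups compared, and 17 to 37 with each mouse left out. The fall from 2 to 6 weeks (13) was 2 with 2000 genes, 7 on the log2 of mean FPKM, 6 with no filter, 3 with quantile normalization and 4 without trend and robust options, and 1 to 20 with each mouse left out. The fall of the genotype difference from 1 to 2 weeks (13) was 23 with 2000 genes, 20 with a pseudocount of 10, 0 on the log2 of mean FPKM, 7 with only the groups compared, 7 without trend and robust options, and 9 to 23 with each mouse left out; from 2 to 6 weeks 1 was called on the log2 of mean FPKM. The 10% filter tested fewer genes. The other causes were not tested. Calls over all genes moved with the setting as well. At 1 week 397 of 11312 genes were called higher, 277 of 11184 with no minimum of genes and 526 of 11643 with 2000 genes per well. At 2 weeks these numbers were 566, 341 and 538. Racgap1 at 1 week turned from 0.05 to -0.0145 with no minimum of genes, -0.325 with a pseudocount of 0.1, -0.064 with quantile normalization, and -0.0146, -0.0352 and -0.131 without CK mouse 2, CK mouse 3 and CKp25 mouse 2 (-0.131 to 0.2 over all mice left out); it passed no test. No called gene reversed under any setting run. The log2 of mean FPKM shifted the median of all genes to -0.15 at 1 week and -0.32 at 2 weeks.

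The share of cells with 5 or more of the genes moved with its minimum. With 3 genes it was 29.4%, 49.9%, 40.4% and 26.1% in CK mice at 0, 1, 2 and 6 weeks, and 31.0%, 52.4%, 44.4% and 25.1% in CKp25 mice. With 10 genes it was 0.383%, 0% and 0% in CK mice at 0, 1 and 2 weeks and 17.9% and 7.36% in CKp25 mice at 1 and 2 weeks. Counting only FPKM of 10 or more gave 1.49%, 0.362%, 0.366% and 0% in CK mice and 22.7% and 9.28% in CKp25 mice at 1 and 2 weeks. With 2000 genes per well it was 10.5% in CK mice at 0 weeks and 41.8% in CKp25 mice at 1 week. The median share over the genes was 3.12% in CKp25 mice at 0 weeks with 2000 genes, and 0.717% in CK mice at 1 week at FPKM of 10 or more.

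With a replicate block 37 genes were called at 1 week and 12 at 2 weeks, 0 at 6 weeks, and 32 and 14 for the changes of the genotype difference. Same-numbered CK and CKp25 mice of a week correlated between -0.139 and 0.361 in their deviations across genes, above 0 in 11 of 12 pairs against 9 of 27 pairs of other numbers, and above 0.1 in 8 of 12, including all 3 at 0 weeks. The correlation was not above 0.1 in 4 pairs, but such a cut cannot decide whether the numbers pair the mice. The main fit did not pair them, and the higher values of same-numbered mice are a hint from the data, not the design. FPKM keep no depth per gene, and a share of 0 in 40 to 95 cells limits rare genes.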
